A study of Homo sapiens with 6 samples.

Results

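The SRSF and HNRNP genes encode the main families of proteins that choose splice sites in human cells. Members were the genes of the deposited expression table whose symbol was SRSF followed by a number, or HNRNP followed by a letter. There were 36 of them among 17891 genes, 12 SRSF and 24 HNRNP. They were compared between T47D cells carrying a lentivirus for PRL, the gene of the hormone prolactin (3 libraries), and T47D cells carrying the control lentivirus PLVX (3 libraries). T47D is an established luminal breast cancer line. Both groups were made with the same puromycin vector system and screened, received no further treatment, and grew for 2 days in RPMI1640 medium with serum before total RNA was extracted. Neither the vector's promoter nor the number of clones behind each population is given in the sources used here. The submitters call the 3 libraries of a group biological replicates, and nothing says whether they came from separate transductions, so the p-values measure the spread between these libraries.

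SR proteins, named for their stretches of arginine and serine, bind short enhancer sequences in exons and recruit the spliceosome to the neighbouring splice sites. Kinases of the SRPK and CLK families phosphorylate those stretches, and the transportin TNPO3 carries the phosphorylated proteins into the nucleus. The hnRNP proteins coat nascent transcripts and often mask splice sites, and many also act in export, stability and translation of the mRNA. Many SR and hnRNP genes limit their own output by splicing their transcripts into forms that nonsense-mediated decay removes.

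The libraries held from 16211146 to 17402348 estimated counts. Controls held 3, 3 and 1 counts of PRL itself and PRL libraries 8277, 8097 and 7789, as the labels state (edgeR log2 fold change 11.47, SE 0.16, adjusted p = 2.04e-11). The PRL libraries resembled each other more than the controls did: a chi-square of counts per gene was 1.66 to 2.17 between PRL libraries and 12.7 to 24.4 between controls, where sampling alone gives about 1. Control replicate 3 stood apart, with a correlation of log2 CPM (counts scaled to a common library size) of 0.944 to 0.945 with the PRL libraries against 0.926 to 0.931 for the other controls, so values without it are given beside the results that rest on it. The groups also differed in scaling: the factors of the trimmed mean of M-values (TMM) were 0.848 to 0.955 in controls and 1.08 to 1.11 in PRL libraries. All 8 luminal epithelial markers examined were detected, with summed levels of 19727 to 26056 CPM in controls and 15268 to 15773 CPM in PRL libraries (3 higher, 3 lower). Of 9 immune, stromal and endothelial markers 3 were higher and 0 lower, their sum was 47.7 to 66.8 CPM against 79.2 to 80.1 CPM, with COL1A1 alone at 50.2 and 71.3 CPM on average, and PTPRC stayed at 0.925 and 0.95 CPM on average, while COL1A2, PDGFRB and VWF were too low to be tested. The part of these shifts in the results was not tested.

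In TMM-scaled counts most of the SR and hnRNP genes that changed had lower transcript levels in the PRL cells. On deposited TPM (levels per transcript length, scaled to the same sum in every library) 4 SRSF genes were higher and 4 lower. There 9 HNRNP genes were higher and 2 lower, beside 7118 higher and 1375 lower of all 12494 genes tested on TPM. In the TMM-scaled counts, 0 of the 12 SRSF genes were called higher and 7 lower, and 5 were not called. Of the 21 HNRNP genes that passed the filter on low counts, 2 were called higher and 12 lower, and 7 were not called. A call is an adjusted p under 0.05 in edgeR's quasi-likelihood test over 14076 genes, in which 62.9% of all genes were called, 32.4% higher and 30.5% lower. The members called in either direction thus made up shares close to that background (58.3% of SRSF, 66.7% of HNRNP), whereas 58.3% and 57.1% of the tested members were called lower. In bulk RNA, fewer cells that express a gene and less of its RNA per cell cannot be told apart.

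The median log2 fold change was -0.32 over the SRSF genes and -0.28 over the HNRNP genes, beside 0.01 over all genes, and this direction depended on the scaling: with deposited TPM, where the median of all genes was 0.39, the family medians were 0.12 and 0.19. Relative to the median of all genes, the family medians were below 0 in each of the 20 settings run, by -0.45 to -0.24 for SRSF and by -0.34 to -0.20 for HNRNP. On that relative scale 8 SRSF and 14 HNRNP genes were below the median gene in every setting in which they were tested. SRSF4, HNRNPA0, HNRNPF, HNRNPH2 and HNRNPR were always above it. The median divides all genes evenly in each setting, and the settings reuse the same libraries. The share of all genes that stayed below it throughout was not computed, so these counts have no background. Without control replicate 3 the medians were -0.20 and -0.18, with 6 SRSF genes lower, 5 HNRNP genes higher and 10 lower. Of all 14339 genes tested without it, 5264 were higher and 4688 lower, with a median of 0.04.

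**Figure D1:**
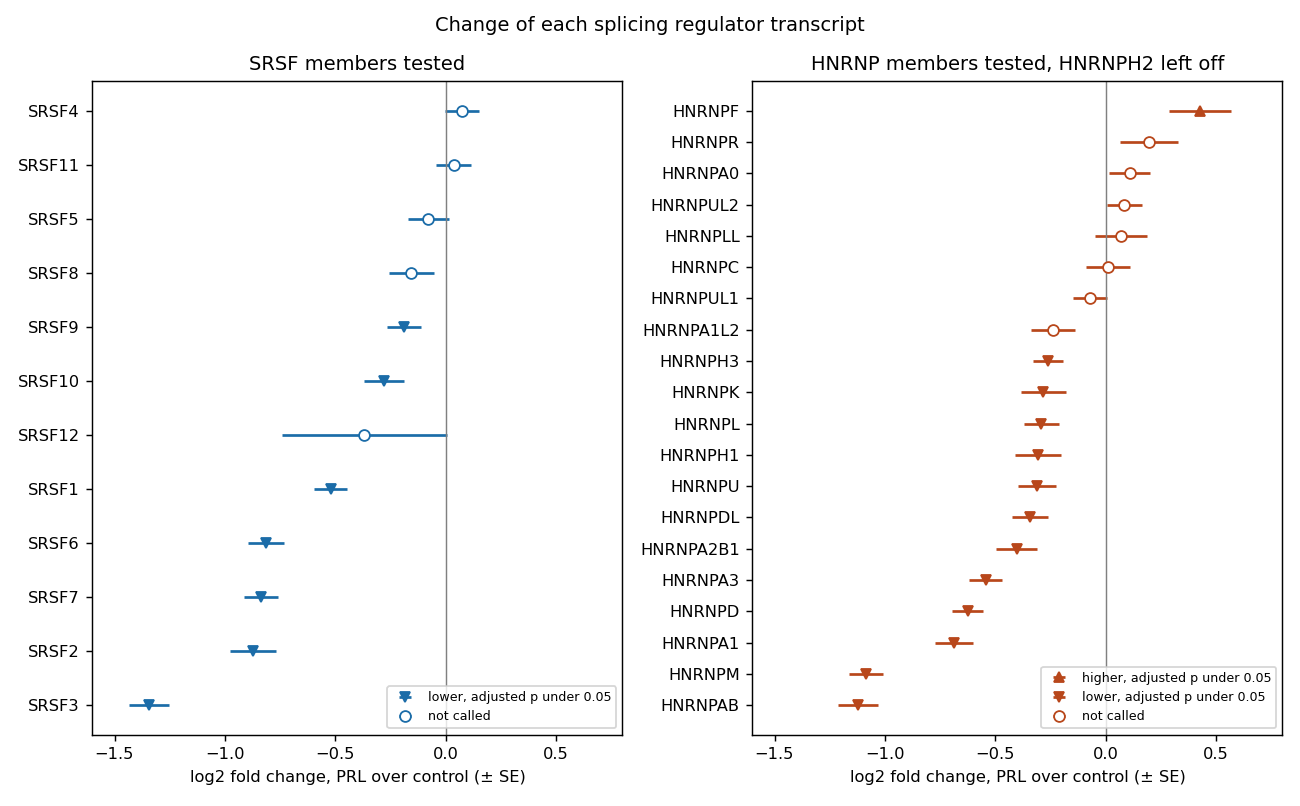
Log2 fold change of each tested member, PRL over control, with its standard error from the edgeR fit; SRSF genes are on the left and HNRNP genes on the right, filled triangles are called and open circles are not. The points run from SRSF3 at -1.34 to SRSF4 at 0.07 and from HNRNPAB at -1.12 to HNRNPF at 0.43; HNRNPH2, at 2.06, lies beyond the axis and is left off.

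Changes were larger in a few members than in the rest. Called changes of at least 1.5-fold were found for 4 SRSF and 5 HNRNP genes (35.0% of all genes). Those of at least 2-fold were found for SRSF3, HNRNPAB, HNRNPM and HNRNPH2 (15.8% of all genes), and all but HNRNPH2 were lower (5.29% of all genes were at least 2-fold lower). The windows of 250 bases before the transcription start of these 4 genes are shown because these genes had the largest called fold changes. They are RefSeq sequences of build GRCh38.p14, on the plus strand: SRSF3 at chr6:36594112-36594361, HNRNPAB at chr5:178204283-178204532, HNRNPM at chr19:8444725-8444974 and HNRNPH2 at chrX:101407972-101408221. Capitals mark matches, on either strand, to the CCAAT box, the TATA box (TATAAA), the E-box (CACGTG) or the cyclic AMP response core (TGACGT), so a match on the minus strand appears as the reverse complement of its letters.
SRSF3: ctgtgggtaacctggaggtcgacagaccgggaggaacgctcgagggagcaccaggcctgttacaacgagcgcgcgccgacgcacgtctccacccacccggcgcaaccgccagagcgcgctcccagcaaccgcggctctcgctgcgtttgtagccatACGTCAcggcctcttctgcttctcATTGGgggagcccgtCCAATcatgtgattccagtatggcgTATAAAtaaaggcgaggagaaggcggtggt
HNRNPAB: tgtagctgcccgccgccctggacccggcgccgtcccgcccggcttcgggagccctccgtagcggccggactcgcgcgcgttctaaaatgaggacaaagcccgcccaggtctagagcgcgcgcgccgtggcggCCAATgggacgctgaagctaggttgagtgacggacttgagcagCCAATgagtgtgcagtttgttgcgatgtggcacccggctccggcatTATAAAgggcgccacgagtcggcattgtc
HNRNPM: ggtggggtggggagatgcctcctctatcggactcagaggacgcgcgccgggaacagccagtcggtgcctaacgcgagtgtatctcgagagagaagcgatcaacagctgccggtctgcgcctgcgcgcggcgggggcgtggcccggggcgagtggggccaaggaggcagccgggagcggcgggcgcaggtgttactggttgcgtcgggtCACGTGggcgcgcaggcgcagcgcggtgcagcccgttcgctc
HNRNPH2: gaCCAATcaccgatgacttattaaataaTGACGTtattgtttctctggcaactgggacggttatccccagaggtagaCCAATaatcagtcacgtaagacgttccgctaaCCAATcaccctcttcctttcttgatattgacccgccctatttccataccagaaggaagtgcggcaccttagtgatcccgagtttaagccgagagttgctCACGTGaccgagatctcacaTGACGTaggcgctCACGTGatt

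The windows end at RefSeq starts: GENCODE places the start of HNRNPM upstream, at 8444767, so most of its window, the E-box included, lies inside the gene as that annotation places it, as do the last bases of the SRSF3 and HNRNPAB windows. In these windows SRSF3 and HNRNPAB share a TATA box with CCAAT boxes upstream of it, while HNRNPM has an E-box alone and HNRNPH2 has 2 E-boxes, 3 CCAAT boxes and 2 cyclic AMP response cores. The window of HNRNPC, a gene that was not called, also has a CCAAT box upstream of a TATA box. A promoter was found for 34 of the 36 members, with 14 windows for SRSF genes and 34 for HNRNP genes, since some genes have several starts. CCAAT was in 20 HNRNP windows (58.8%) and 3 SRSF windows (21.4%), against 32.0% of all 35097 windows. Windows are not independent: these SRSF windows belong to SRSF3 and SRSF8 only, and those of SRSF8 overlap and hold the same site. The HNRNP windows include those of HNRNPCL1 and HNRNPCL2, which were too low to be tested. CACGTG was in 7 HNRNP windows (20.6%), 0 SRSF windows and 6.34% of all windows, and the genes were HNRNPA3, HNRNPD, HNRNPDL, HNRNPH2, HNRNPH3 and HNRNPM. The sequence TTCNNNGAA, which STAT factors downstream of the prolactin receptor can bind, was in 2 HNRNP windows (HNRNPH1 and HNRNPR), 0 SRSF windows and 6.56% of all windows. TATAAA was in 3 SRSF windows (SRSF3, SRSF7 and SRSF11), 3 HNRNP windows (HNRNPAB, HNRNPC and HNRNPD) and 10.7% of all windows. TGACGT was in 3 SRSF windows (SRSF1, SRSF3 and SRSF5), 4 HNRNP windows and 7.10% of all windows. The ETS core CCGGAAG was in 2 SRSF windows, 3 HNRNP windows and 8.52% of all, the interferon response element in 0, 2 and 3.02%, and the NRF1 motif in 0, 0 and 1.03%. The median GC content was 61.4% for SRSF windows and 65.6% for HNRNP windows, beside 58.0% for all. These matches are counts of letters and show no binding.

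Among the SR genes, SRSF3 fell the most. It lies at 6:36594353-36605600 on the plus strand (GENCODE annotation of GRCh38, as for all member locations) and encodes the smallest SR protein, which also couples splicing to mRNA export. Its levels were 441, 357 and 396 CPM in the controls and 155, 156 and 159 CPM in the PRL libraries. No PRL library came near a control, and the level was 2.54-fold lower (edgeR log2 fold change -1.34, SE 0.09, adjusted p = 1.12e-06).

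SRSF2, SRSF7 and SRSF6 fell by less. SRSF2, which stays in the nucleus and also acts in transcription elongation, had 276, 310 and 362 CPM in controls and 161, 177 and 181 CPM in PRL libraries (edgeR log2 fold change -0.87, SE 0.10, adjusted p = 5.05e-05). SRSF7, a relative of SRSF3 that also serves in export, had 165, 158 and 179 CPM against 95.1, 92.5 and 93.9 CPM (edgeR log2 fold change -0.84, SE 0.08, adjusted p = 8.26e-06). SRSF6, an exonic enhancer-binding SR protein, had 198, 224 and 232 CPM against 118, 126 and 127 CPM (edgeR log2 fold change -0.81, SE 0.08, adjusted p = 1.79e-05). In each of the 3 genes every PRL library was below every control. SRSF1, the prototype of the family and an oncoprotein in breast tissue when overproduced, went from 304 ± 16.2 to 212 ± 5.24 CPM (SD, n = 3 each; edgeR log2 fold change -0.52, adjusted p = 1.74e-04).

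SRSF3, SRSF2, SRSF7, SRSF6, HNRNPAB and HNRNPM were the 6 members whose call and direction were the same in all 19 alternative settings. SRSF1 lost its call on deposited TPM alone (log2 difference -0.09, limma adjusted p = 0.486), as did HNRNPD (-0.17, limma adjusted p = 0.0988).

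**Figure D2:**
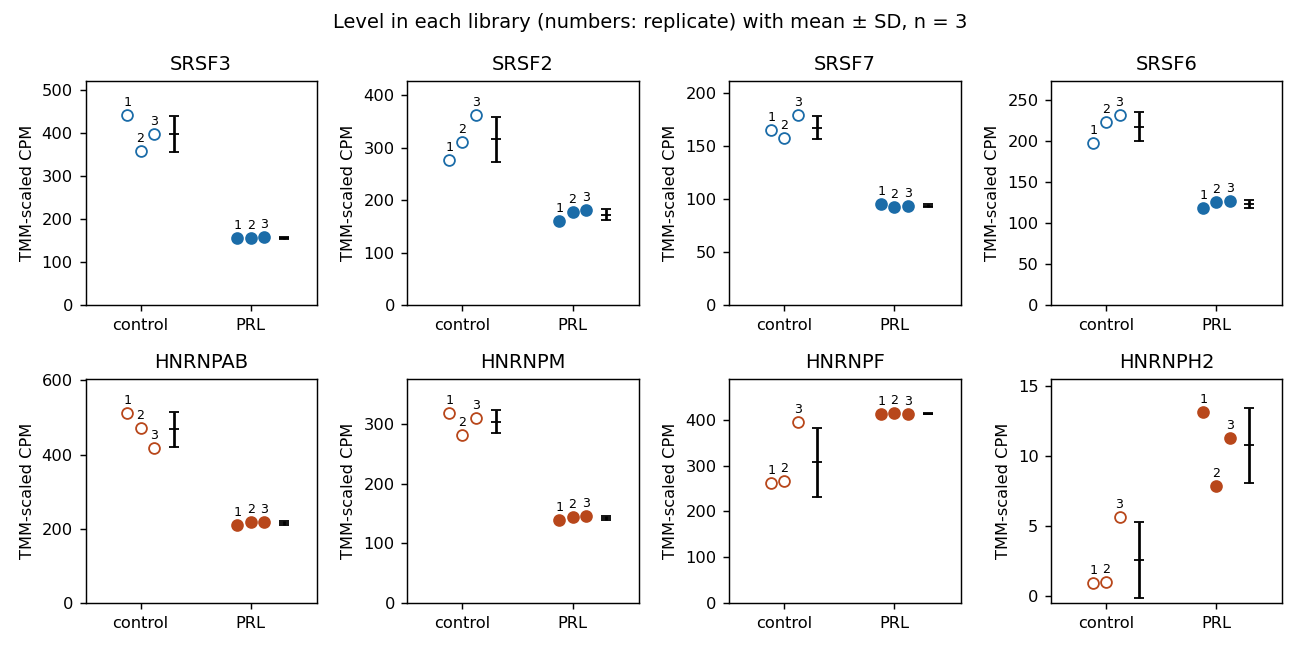
TMM-scaled CPM in each library for SRSF3, SRSF2, SRSF7, SRSF6, HNRNPAB, HNRNPM, HNRNPF and HNRNPH2; open points are controls, filled points are PRL libraries, numbers give the replicate, and the bar beside each group is mean ± SD (n = 3). The PRL points lie closer together than the controls except for HNRNPH2, where the SDs are nearly equal (2.71 CPM in controls and 2.69 CPM in PRL libraries). Control replicate 3 is the control nearest to the PRL points for HNRNPF (394 CPM), HNRNPH2 (5.68 CPM) and HNRNPAB (418 CPM).

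SRSF10 and SRSF9 passed the threshold by little. SRSF10, a splicing repressor when dephosphorylated, went from 101 ± 12.4 to 83.5 ± 1.20 CPM (SD, n = 3 each; edgeR log2 fold change -0.28, adjusted p = 0.0209), and its adjusted p was 0.0577, 0.0759 and 0.0689 without PRL replicate 1, 2 or 3 and 0.841 on library totals. SRSF9, the SR gene with the highest FPKM (level per length and library total), had 248, 244 and 274 CPM in controls and 223, 220 and 228 CPM in PRL libraries. The groups were apart by a narrow gap (edgeR log2 fold change -0.19, SE 0.08, adjusted p = 0.0488). Its adjusted p was 0.0999 without control replicate 3 and 0.117 to 0.17 without a PRL replicate, and on library totals, FPKM and TPM its difference was above 0.

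The other 5 SR genes were not called. SRSF5, the SR gene next to SRSF9 in FPKM, had 178, 225 and 215 CPM in controls and 197, 196 and 192 CPM in PRL libraries, all within the range of the controls (edgeR log2 fold change -0.08, SE 0.09, adjusted p = 0.474). Without control replicate 1 its log2 fold change was -0.17 with an adjusted p of 0.0286. SRSF4 (65.2 to 68.6 CPM on average, log2 fold change 0.07) and SRSF11 (126 to 129 CPM, log2 fold change 0.04) also overlapped between the groups. SRSF8, an intronless relative of SRSF2, had 17.4 ± 1.75 and 15.6 ± 0.352 CPM (SD, n = 3 each; edgeR log2 fold change -0.16, adjusted p = 0.206), and without control replicate 2 its log2 fold change was -0.24 with an adjusted p of 0.0424. SRSF12, related to SRSF10, was near the detection limit at 0.821 ± 0.272 and 0.631 ± 0.160 CPM (SD, n = 3 each), and its log2 fold change of -0.37 had an SE of 0.37.

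Among the hnRNP genes, HNRNPAB and HNRNPM fell the most. HNRNPAB, at 5:178204507-178211163 (plus strand), encodes a nucleic acid-binding protein of the A/B group and had 513, 473 and 418 CPM in controls against 210, 218 and 218 CPM in PRL libraries (edgeR log2 fold change -1.12, SE 0.09, adjusted p = 3.81e-06). HNRNPM, at 19:8444767-8489114 (plus strand), encodes a splicing repressor known for its role in the epithelial to mesenchymal splicing switch, and had 319, 282 and 311 CPM against 139, 144 and 146 CPM (edgeR log2 fold change -1.09, SE 0.08, adjusted p = 1.66e-06). Every PRL library was below every control for both genes.

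HNRNPA1, HNRNPA2B1, HNRNPA3, HNRNPD and HNRNPDL also fell. HNRNPA1, at 12:54280193-54287088 (plus strand), the best studied splice-site repressor of the family, had 1217, 1153 and 1265 CPM in controls and 754, 739 and 763 CPM in PRL libraries (edgeR log2 fold change -0.69, SE 0.08, adjusted p = 6.16e-05). HNRNPA2B1, which binds and transports mRNA, had 1470, 1412 and 1644 CPM against 1154, 1123 and 1144 CPM (edgeR log2 fold change -0.40, SE 0.09, adjusted p = 0.00326). HNRNPA3 went from 379 ± 14.2 to 260.1 ± 3.43 CPM (SD, n = 3 each; log2 fold change -0.54). In these counts the 3 genes were apart between the groups in every library, whereas as FPKM they were not called. HNRNPD, also known as AUF1 and a regulator of the decay of AU-rich mRNAs, was even among the controls (296, 296 and 295 CPM) and lower in all PRL libraries (198, 190.4 and 187 CPM; edgeR log2 fold change -0.63, SE 0.07, adjusted p = 3.40e-05). Its relative HNRNPDL had a log2 fold change of -0.34 (adjusted p from edgeR = 0.00362), which was not called on library totals (-0.09, adjusted p = 0.361) or as FPKM (-0.08, limma adjusted p = 0.389). HNRNPA2B1 was not called on library totals either (-0.15, adjusted p = 0.143).

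The remaining 5 hnRNP genes called lower fell by 16.5% to 19.4%. They were HNRNPU, which binds the nuclear scaffold (478 to 385 CPM), HNRNPK, which binds C-rich RNA (525 to 431 CPM), HNRNPL, which binds CA repeats (292 to 239 CPM), and HNRNPH1 and HNRNPH3, which bind runs of G (231 to 187 CPM and 174 to 145 CPM). Their edgeR adjusted p values were 0.00809, 0.0326, 0.00827, 0.0225 and 0.00653 in that order, and on library totals with no further scaling they were 0.574 to 0.949. Leaving out single libraries ended the calls of HNRNPK and HNRNPH1 in several cases: without control replicate 3 their log2 fold changes were -0.16 and -0.18 with adjusted p of 0.0922 and 0.057, without a PRL replicate the adjusted p was 0.0888 to 0.105 and 0.0548 to 0.0822, and HNRNPH1 had 0.0507 without control replicate 2. Both stayed called without control replicate 1 (0.0389 and 0.00166), and HNRNPK without control replicate 2 (0.00664). HNRNPL had an adjusted p of 0.0526 without PRL replicate 1 and HNRNPU 0.0517 without PRL replicate 2.

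HNRNPF, the other abundant G-run-binding protein, went the other way. Its levels were 263, 265 and 394 CPM in controls and 412, 415 and 412 CPM in PRL libraries (edgeR log2 fold change 0.43, SE 0.14, adjusted p = 0.0219). Control replicate 3 lay close under the PRL libraries and the other controls lay far below them. Without that replicate the log2 fold change was 0.66 (adjusted p from edgeR = 1.34e-05), and leaving out any 1 of the other libraries it was 0.33 to 0.43 with an adjusted p of 0.0544 to 0.105. The ratio of HNRNPH1 to HNRNPF counts, which no scaling between libraries can move, was 0.754, 0.862 and 0.673 in controls and 0.464, 0.440 and 0.450 in PRL libraries.

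HNRNPH2, a near relative of HNRNPH1 on chromosome X (X:101408295-101414133, plus strand), had the largest fold change of all members at the lowest level of any called member. Its counts were 14, 16 and 91 in controls and 238, 143 and 198 in PRL libraries, or 0.949, 1.02 and 5.68 CPM against 13.2, 7.87 and 11.3 CPM (edgeR log2 fold change 2.06, SE 0.52, adjusted p = 0.00776). Here too control replicate 3 was the control nearest to the PRL libraries: the log2 fold change was 3.46 without it, 1.68 and 1.67 without control replicate 1 or 2, and 1.89 with an adjusted p of 0.0593 without PRL replicate 1. With no filter on low counts the adjusted p was 0.0592. The table lists a readthrough of RPL36A and HNRNPH2 separately. In GENCODE it shares 16.3% of the exon bases of HNRNPH2, but the share in the annotation behind the counts is not known. The readthrough had 1144, 1010 and 1320 counts in controls and 1752, 1773 and 1575 in PRL libraries (edgeR log2 fold change 0.34, adjusted p = 0.00953). Since reads could be divided between these genes, their sum was also tested, and its log2 fold change was 0.45 (adjusted p from edgeR = 0.00321).

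The other 7 tested hnRNP genes were not called. HNRNPC, which binds U tracts and blocks cryptic exons, had 628, 523 and 663 CPM in controls and 611, 610.4 and 606 CPM in PRL libraries, with the PRL values inside the control range (edgeR log2 fold change 0.01, SE 0.10, adjusted p = 0.930). HNRNPR had 116, 108 and 163 CPM against 149, 147 and 147 CPM, with control replicate 3 above all PRL libraries (edgeR log2 fold change 0.19, SE 0.13, adjusted p = 0.218). Without that replicate HNRNPR, HNRNPA0 and HNRNPLL were called higher, at log2 fold changes of 0.41, 0.24 and 0.24. HNRNPUL2 was above all controls in every PRL library by a small margin (254 ± 17.5 and 269 ± 3.27 CPM, SD, n = 3 each; edgeR log2 fold change 0.08, adjusted p = 0.363), and HNRNPUL1 overlapped (log2 fold change -0.07). HNRNPA1L2, a relative of HNRNPA1, had a log2 fold change of -0.24 (adjusted p from edgeR = 0.0593, and 0.0386 without control replicate 1). Groups that did not overlap were found for 7 SRSF and 16 tested HNRNP genes, beside 69.5% of all genes.

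HNRNPCL1, HNRNPCL2 and HNRNPCL4, relatives of HNRNPC, did not pass the filter on low counts. None of them had more than 2 counts in any library. A count of 0 allows a level of up to 0.165 to 0.203 CPM, taking 3 counts as the limit, and this covers counting error only.

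Per transcript length, as deposited FPKM, HNRNPA2B1 was the most abundant member by its mean over all libraries (444 ± 95.3 in controls and 493 ± 13.4 in PRL libraries), followed by HNRNPA1 (355 ± 53.7 and 331 ± 5.84), HNRNPC (234 ± 27.7 and 285 ± 3.64), SRSF9 (212 ± 21.9 and 222 ± 3.08) and HNRNPAB (262 ± 20.7 and 141 ± 1.86; SD, n = 3 each). In the controls HNRNPA2B1 and HNRNPA1, and likewise HNRNPAB and HNRNPC, differed by no more than the larger of their SDs, whereas in the PRL libraries HNRNPAB was well below the other 4. SRSF12 (0.203 and 0.190 FPKM) was the lowest tested member.

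Summed over a family, the SR transcripts were lower in CPM by a larger percentage than the hnRNP transcripts. The 12 SRSF genes together had 2175 ± 108 CPM in controls and 1475 ± 11.0 CPM in PRL libraries (SD, n = 3 each), 32.2% lower. The 24 HNRNP genes together had 7817 ± 542 CPM and 6134 ± 45.7 CPM (SD, n = 3 each), 21.5% lower. These sums depend on scaling: as summed TPM they were 1302 ± 198 and 1241 ± 20.3 for SRSF and 3640 ± 579 and 4090 ± 94.8 for HNRNP.

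The ratio of SRSF to HNRNP counts within a library does not depend on scaling between libraries. It was 0.271, 0.290 and 0.274 in the controls and 0.239, 0.242 and 0.241 in the PRL libraries, so that all PRL libraries were below all controls. With FPKM the ratio was 0.349, 0.378 and 0.347 in controls and 0.301, 0.306 and 0.303 in PRL libraries, again apart. The medians of the families, in contrast, differed by only 0.04 on the log2 scale, and the sign of that difference turned with some settings. These are descriptions of 6 libraries with no test, because members are not replicates. Control replicate 3 was the control nearest to the PRL mean for 1 of 12 SRSF genes (8.33%) and 8 of 21 tested HNRNP genes (38.1%), beside 49.8% of all genes.

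Within each family the balance between members also shifted. SRSF3 went from 1.56 ± 0.186 to 0.701 ± 0.00701 counts per SRSF9 count (SD, n = 3 each), and SRSF6 went from 3.34 ± 0.0424 to 1.81 ± 0.0963 per SRSF4 count. SRSF6 and SRSF5 were nearly equal in controls (ratio 1.06 ± 0.0597) and apart in PRL libraries (0.636 ± 0.0308). HNRNPM went from 0.506 ± 0.0358 to 0.235 ± 0.00666 per HNRNPC count, and HNRNPA1 went from 11.6 ± 1.04 to 6.65 ± 0.153 per HNRNPA0 count. Ratios of counts take no account of transcript length, and as FPKM HNRNPA1 was not called. As shares of the SRSF sum of TPM, SRSF9 went from 23.6% ± 0.471 to 29.5% ± 0.370 and SRSF5 from 14.0% ± 1.48 to 18.5% ± 0.372, while SRSF2 went from 16.8% ± 1.16 to 11.9% ± 0.752 and SRSF3 from 9.75% ± 1.31 to 5.46% ± 0.0395 (SD, n = 3 each). In the HNRNP sum, HNRNPAB went from 10.6% ± 1.89 to 5.69% ± 0.142 and HNRNPF from 4.28% ± 0.657 to 7.0% ± 0.0891. HNRNPA1 moved little there, from 14.1% ± 0.455 to 13.4% ± 0.0835, and HNRNPA2B1 went from 17.5% ± 1.64 to 19.9% ± 0.313. None of these shares overlapped between the groups.

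**Figure D3:**
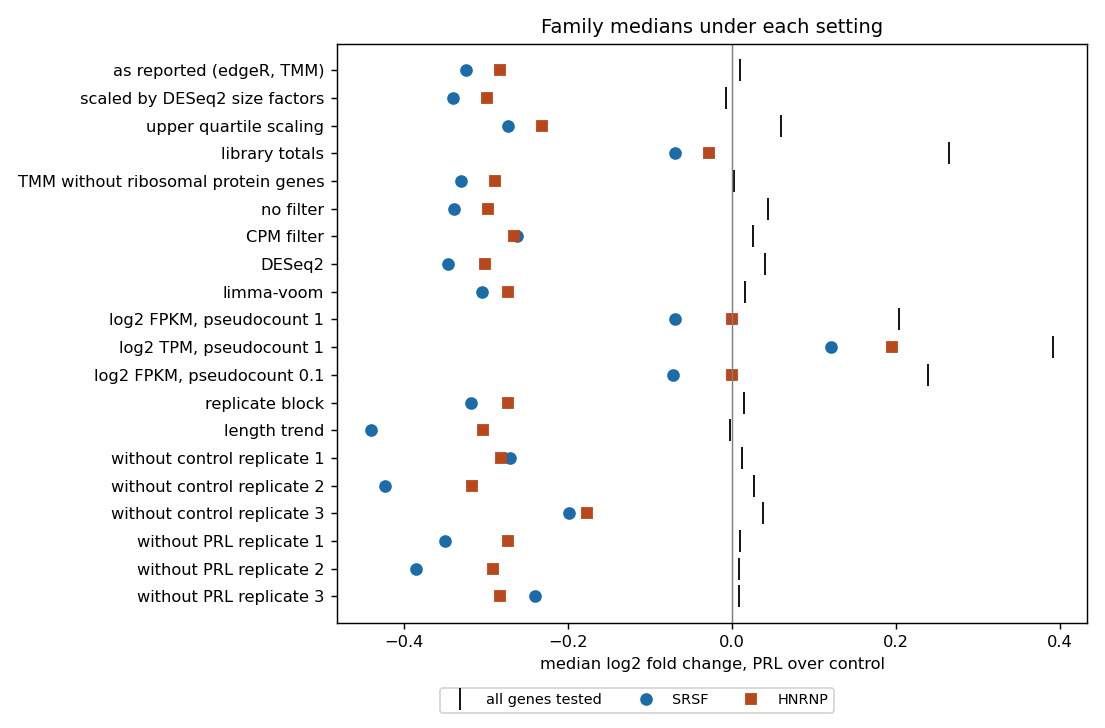
Median log2 fold change, PRL over control, of all genes tested (black bars), the SRSF genes (circles) and the HNRNP genes (squares) under each setting. The family medians are left of the bar in every setting, and with TPM, where the bar is at 0.39, they are at 0.12 and 0.19.

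For HNRNPA1, HNRNPA2B1 and HNRNPA3 the difference seen in counts was not called in deposited FPKM, and for HNRNPA2B1 it changed sign. This was not particular to them. HNRNPDL, HNRNPH1, HNRNPH3, HNRNPK, HNRNPL, HNRNPU, SRSF10 and SRSF9 also lost their call in FPKM, and SRSF9 changed sign. The transcript length that the authors' values imply, counts divided by FPKM and library total, was computed for the genes with at least 5 FPKM and 50 counts in every library. For HNRNPA1 it was 3306, 3262 and 2881 bases in controls and 2480, 2485 and 2491 bases in PRL libraries. For HNRNPA2B1 it was 3340, 3315 and 2814 bases against 2528, 2564 and 2497 bases. For HNRNPA3 it was 5593, 5467 and 5077 bases against 4427, 4466 and 4328 bases. In all 3 genes the implied length was shorter in every PRL library than in any control, and control replicate 3 was the control nearest to them.

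The log2 differences in implied length were -0.34, -0.32 and -0.29. They were the only ones of at least 0.2 with groups apart among the 30 members with a length, beside 3.66% of 7179 genes, 1.41% shorter. For 25 of the 30 members the implied length differed by less than 0.1 on the log2 scale. They included the other genes named above that lost their call in FPKM. On log2(FPKM + 1) the differences of these genes were -0.09 for HNRNPA1 (limma adjusted p = 0.437), 0.17 for HNRNPA2B1 (limma adjusted p = 0.255) and -0.00 for HNRNPA3 (limma adjusted p = 0.997). Among SR genes SRSF2 had the largest difference, 1915 ± 23.8 bases in controls and 2113 ± 18.4 bases in PRL libraries (SD, n = 3 each), longer by 0.14 on the log2 scale. SRSF3, SRSF6 and SRSF9 had the same implied length in all libraries to within 1 base. The table gives no separate transcripts, so which isoforms lie behind these lengths was not analysed here. GENCODE lists 74 pseudogenes named for HNRNPA1, 16 for HNRNPA3 and 0 for HNRNPA2B1, and reads could be divided among such copies. HNRNPC has 9 and HNRNPK 5, with length differences of -0.015 and 0.017 on the log2 scale. The part of pseudogenes in the implied lengths was not tested.

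**Figure D4:**
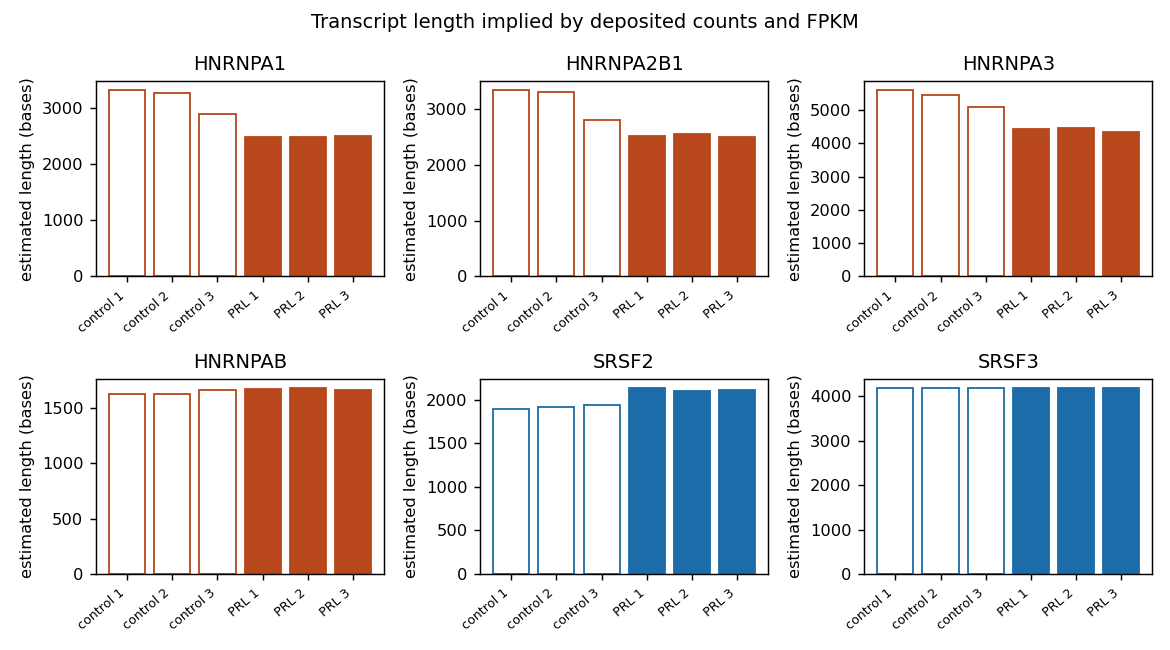
Transcript length in bases implied by the deposited counts and FPKM in each library for HNRNPA1, HNRNPA2B1, HNRNPA3, HNRNPAB, SRSF2 and SRSF3; white bars are controls and filled bars are PRL libraries. The first 3 genes are shorter in the PRL libraries (2480 to 2491 bases for HNRNPA1 against 2881 to 3306), and SRSF3 is level.

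The annotation sets the families apart as well. All 12 SRSF genes have at least 1 transcript annotated as a target of nonsense-mediated decay in GENCODE 29, as have 13 of the 24 HNRNP genes and 35.6% of protein-coding genes. Such transcripts make up 21.9% of the 114 SRSF transcripts, 10.4% of the 288 HNRNP transcripts and 10.1% of all transcripts of coding genes. Pseudogenes named for members number 123 for HNRNP genes and 3 for SRSF genes. Whether reads were counted by strand is not given in the sources used here, so reads in overlaps cannot be assigned. In GENCODE 46.2% of the exon bases of SRSF9 lie opposite GATC (edgeR log2 fold change -0.28, adjusted p = 0.00424). For SRSF2 36.7% lie opposite MFSD11 (-0.09, adjusted p = 0.434), and for HNRNPU 15.6% opposite COX20 (-0.41, adjusted p = 0.00177). On the same strand, 56.6% of those of SRSF1 lie in AC015813.2 and 44.1% of those of HNRNPUL2 in a readthrough with BSCL2. These shares may differ in the annotation behind the counts: SRSF1 has 3340 exon bases in GENCODE and an implied length of 5310 to 5425 bases.

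Related lists were examined in TMM-scaled counts only, and their calls stand beside 32.4% higher and 30.5% lower over all genes; the shares of nonsense-mediated decay factors (35.7% each way) and of SR-related regulators called lower (29.4%) were near these. Of 9 tested SR protein kinases and import factors, 4 were higher and 2 lower, with a median log2 fold change of 0.21. The kinases CLK3 (76.8 ± 5.34 to 122.7 ± 2.72 CPM), CLK1 (15.1 ± 2.17 to 26.5 ± 1.17 CPM) and SRPK2 (14.5 ± 2.55 to 24.3 ± 0.564 CPM) rose (SD, n = 3 each; log2 fold changes 0.68, 0.81 and 0.75; edgeR adjusted p = 3.59e-05, 1.24e-04 and 3.75e-04). Among 17 SR-related regulators 3 were higher and 5 lower (median 0.06). TRA2B, the partner of SR proteins on exonic enhancers, had a log2 fold change of -0.76, the U1-associated LUC7L -0.80 and SREK1 -0.39.

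The hnRNP-related RNA-binding proteins were lower in 8 of 16 tested genes and higher in 1 (median -0.21). RBMX, also called hnRNP G, went from 278 ± 7.12 to 156 ± 3.18 CPM (SD, n = 3 each; edgeR log2 fold change -0.83, adjusted p = 5.38e-06), and RALY had a log2 fold change of -0.64. Of 34 core spliceosome genes 24 were lower and 2 higher, with a median of -0.48. SF1, which recognises the branch point, had a log2 fold change of -0.86, and the Sm proteins SNRPF and SNRPG had -1.33 and -1.01.

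Of 14 splicing regulators with cell-type restricted expression, 8 were higher and 2 lower (median 0.42). RBM47 went from 37.8 ± 2.66 to 81.3 ± 1.81 CPM, NOVA2 from 0.280 ± 0.0355 to 2.24 ± 0.407 CPM, and the epithelial regulator ESRP2 from 188 ± 5.09 to 116 ± 1.80 CPM (SD, n = 3 each; log2 fold changes 1.11, 2.96 and -0.70). Of 14 nonsense-mediated decay factors 5 were higher and 5 lower (median -0.09): the exon junction protein RBM8A had a log2 fold change of -0.64, SMG9 -0.69 and the helicase UPF1 0.50.

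**Figure D5:**
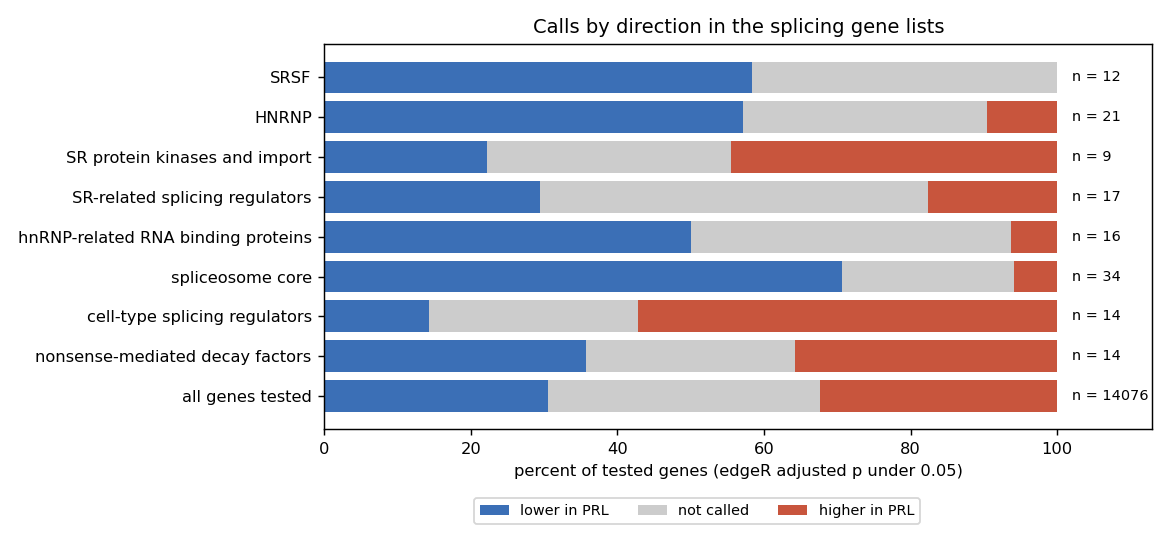
Percent of tested genes called lower (blue), not called (grey) and called higher (red) in PRL libraries for the member families, the related lists and all genes. The core spliceosome list has the largest lower share (24 of 34), and the cell-type regulators the largest higher share (8 of 14).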

How the data were processed

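RNA-seq of T47D cells was compared between 3 PRL libraries and 3 control libraries. The authors deposited 1 table with read counts, FPKM and TPM per gene and library, per the file headers. HISAT2 2.1.0, Bowtie2 2.3.4.3 and build GRCh38.p13 are named in the submitters' processing notes; which tool and annotation counted the reads, and whether by strand, is not given in the sources used here. The deposited read counts (44.1% to 45.9% of values not whole) are called estimated counts here. They were rounded and tested with edgeR 4.0.16 in R 4.3.3 (quasi-likelihood, robust, TMM scaling, filterByExpr by group, Benjamini-Hochberg over 14076 genes). Levels are CPM scaled by TMM; SDs are over 3 libraries; an SE is the log2 fold change divided by the square root of its F value. With 1 count worth 0.0551 to 0.0678 CPM, precision is limited for SRSF12 and HNRNPH2. The deposited FPKM and TPM values, scaled by the authors to length and depth, were tested as log2(value + 1), or + 0.1, with limma 3.58.1 where their mean was at least 1. DESeq2 1.42.0 and limma-voom, scalings, filters, a length trend (mgcv 1.9.3), the replicate block and leaving out each library were alternatives. Implied length is the count divided by the FPKM and the library total, in bases, with thresholds set after seeing the data; the sum of HNRNPH2 with its readthrough was also added then. The scripts were tested on simulated data.

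The members and lists were chosen with earlier results of these data known. Per-library values are given for the 4 largest called changes in each family with groups apart, the 2 members of each family highest in FPKM, and members that go against their family; from each related list the 3 genes with the smallest adjusted p are named, except for 1 result that is not reported here. The lists are SR protein kinases and import factors (10 genes, 9 tested), SR-related regulators, hnRNP-related RNA-binding proteins (18, 16 tested), core spliceosome, cell-type splicing regulators, nonsense-mediated decay factors, luminal markers, and immune, stromal and endothelial markers (9, 6 tested). Promoters are RefSeq windows (GRCh38.p14). The authors' group means were not used.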

Additional observations from a re-analysis of the deposited data

How the results depend on the processing

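The direction of both families depended on scaling. The family medians that follow are as fitted, not relative to the median of all genes. That median was 0.26 with library totals, 0.20 with log2(FPKM + 1), 0.39 with TPM and 0.24 with log2(FPKM + 0.1). In that order the HNRNP median was -0.028, -0.0006, 0.19 and -0.0005 and the SRSF median -0.07, -0.0696, 0.12 and -0.0719; the length trend gave SRSF -0.44. In the same order 6, 7, 9 and 7 HNRNP genes were higher and 5, 3, 2 and 3 lower, 2, 2, 4 and 2 SRSF genes were higher, and with TPM 4 SRSF genes were lower. Over all genes 2394, 2356, 1375 and 2343 were lower, and 7118 were higher with TPM; of all calls 51.4% were higher as reported and 72.9%, 69.9%, 83.8% and 69.8% with these. With no filter 1 HNRNP gene was higher. The HNRNP minus SRSF median was 0.04 as reported, -0.0037 with the CPM filter, 0.069, 0.0742 and 0.0715 with the FPKM, TPM and FPKM + 0.1 values and 0.136 with the length trend.

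Leaving out each library gave HNRNP medians of -0.32 to -0.18, SRSF medians of -0.42 to -0.20 and differences of -0.0427 to 0.106. It gave 0 to 5 HNRNP genes higher and 9 to 13 lower, and 5 to 8 SRSF genes lower. Of all 14220 to 14339 genes tested, 3929 to 5264 were then higher and 3653 to 4688 lower. The replicate block gave 8531 calls in place of 8854, with 1 HNRNP gene higher and 12 lower and 6 SRSF genes lower; it ended the calls of HNRNPH2 (adjusted p = 0.101) and SRSF9 (0.126) and of no other member. Same-numbered libraries deviated from their group means with correlations of -0.105, 0.0428 and -0.0569, and control replicate 1 correlated best with PRL replicate 3 (0.129), so the libraries were taken to share only a number.

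Of 624 repeats of single members, 485 kept direction and side of the threshold and 43 turned direction. With TPM these were HNRNPA1 0.106, HNRNPA1L2 0.197, HNRNPA2B1 0.367, HNRNPA3 0.195, HNRNPDL 0.110, HNRNPH1 0.140, HNRNPH3 0.161, HNRNPK 0.162, HNRNPL 0.154, HNRNPU 0.142, HNRNPUL1 0.372, SRSF5 0.351, SRSF8 0.259, SRSF9 0.265 and SRSF10 0.121, of which HNRNPA2B1 (limma adjusted p = 0.0349), HNRNPUL1, SRSF5 and SRSF9 passed the threshold. With library totals, log2(FPKM + 1) and log2(FPKM + 0.1) they were HNRNPA1L2 0.0138, 0.0135 and 0.0154, HNRNPUL1 0.181, 0.175 and 0.177, SRSF5 0.169, 0.154 and 0.155, SRSF8 0.101, 0.0841 and 0.104, and SRSF9 0.0633, 0.0677 and 0.0680; HNRNPA2B1 had 0.170 and 0.171 with FPKM. The length trend gave HNRNPC -0.0358, HNRNPLL -0.0297, HNRNPUL2 -0.0177, SRSF11 -0.0850, SRSF5 0.0768 and SRSF9 0.121. HNRNPC was -0.0062 with DESeq2 size factors, -0.0035 with no filter, -0.0085 in DESeq2 and -0.0886 without control replicate 2, where HNRNPLL was -0.0000. The cause of these turns was not tested. SRSF12 gave no value on FPKM, TPM or the CPM filter.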
